A study of Homo sapiens with 4 samples.

Results

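The 10 genes described here encode the MCM helicase and the proteins that load and restrain it at replication origins, in HCT116 cells with and without an siRNA against the long noncoding RNA LINC00152. They were taken by gene symbol, 10 of the 19972 different symbols in the tables, and comprise MCM2, MCM3, MCM4, MCM5, MCM6 and MCM7, which form the helicase ring, together with MCM10, CDT1, CDC6 and GMNN. HCT116 cells are an established line of epithelial origin from a human colorectal carcinoma. One group received a non-targeting control siRNA (si-NC) and the other an siRNA against LINC00152 (si-152), both at 100 nM, and RNA was taken after 36 h. Each group held 2 biological replicates, numbered 1 and 2, so that 4 libraries were compared. The comparison asked which mRNAs differed when LINC00152 was targeted. LINC00152 itself was not analysed here, and its knockdown was therefore not checked in these libraries.

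Licensing is the step by which a replication origin is made ready before S phase. The origin recognition complex and CDC6 bind the origin, CDT1 brings in the MCM2-7 ring, and rings are loaded onto the DNA in an inactive form. At the start of S phase, CDC45 and the GINS complex join the ring to make the active helicase, with MCM10 taking part in its activation. Geminin, encoded by GMNN, binds CDT1 and keeps origins from being licensed again in the same cycle. Many of these genes are known targets of the E2F transcription factors, which raise the transcription of S-phase genes in proliferating cells.

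The genes were chosen by symbol and not by promoter sequence. Since many of them are known E2F targets, a high share of E2F words was likely beforehand, and the promoters are shown for description. Promoter windows of 250 bases before to 50 bases after an annotated start were available from RefSeq (GRCh38.p14) for 8 of the 10 genes, the other two being MCM4 and MCM5. The E2F words searched, on both strands and with overlaps allowed, were TTTCCCGC, TTTCGCGC, TTTGGCGC and TTTGCCGC. At least 1 of them was found in 7 of the 8 genes, against 3.99% of all 27305 genes with a window, 6.76% of the 8656 tested genes with a window and 20 of 56 other replication genes. The window of MCM10 held none of these words. MCM6 held the most, with 2 runs of 12 bases in which a word on one strand overlaps a word on the other. The bases before its start are printed whole, and for the other genes the 30 bases around each word are given, 5′ to 3′ on the strand of the gene, with the E2F words in capitals.
MCM6, chr2:135876444-135876693, minus strand, 250 bases before the start: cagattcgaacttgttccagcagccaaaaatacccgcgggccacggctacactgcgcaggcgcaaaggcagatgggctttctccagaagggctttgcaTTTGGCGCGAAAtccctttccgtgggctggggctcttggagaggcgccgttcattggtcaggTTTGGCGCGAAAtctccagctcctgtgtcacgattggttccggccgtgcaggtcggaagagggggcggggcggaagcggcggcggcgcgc
MCM2, chr3:127598404-127598433, plus strand: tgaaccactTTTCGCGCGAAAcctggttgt
MCM3, chr6:52284898-52284927, minus strand: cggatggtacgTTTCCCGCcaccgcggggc
MCM3, chr6:52284728-52284757, minus strand: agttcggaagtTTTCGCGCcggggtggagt
MCM7, chr7:100101566-100101595, minus strand: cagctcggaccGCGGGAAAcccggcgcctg
MCM7, chr7:100101388-100101417, minus strand: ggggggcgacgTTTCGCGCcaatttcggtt
CDT1, chr16:88803743-88803772, plus strand: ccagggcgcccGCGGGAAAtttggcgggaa
CDC6, chr17:40287875-40287904, plus strand: ggccattcggaTTTGGCGCgagcgcggctg
GMNN, chr6:24775322-24775351, plus strand: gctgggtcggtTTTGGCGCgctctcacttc

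The E2F words of MCM6 lay at -90 to -79 from the start and in a second run further upstream, ending at -141, and that of CDT1 at -35 to -28. In MCM2 and CDC6 they lay just past the start, at 3 to 14 and at 8 to 15. MCM3 and MCM7 each held 1 word far upstream and 1 at the start itself. For GMNN the word lay at -80 to -73 of the second of its 2 annotated starts, and for MCM7 both words belonged to the first of 3. The word CCAAT, which is bound by NF-Y, was found on either strand in 6 of the 8 genes and in 31 of 56 other replication genes (55.4%). The share was 43.4% of tested genes with a window and 39.7% of all genes with a window. The GC box GGGCGG was found in 6 of the 8 genes. That share is no higher than the 79.5% of tested genes and 78.6% of the other replication genes that hold it, beside 48.3% of all genes with a window. These matches describe letters and say nothing of whether a factor was bound.

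**Figure D1:**
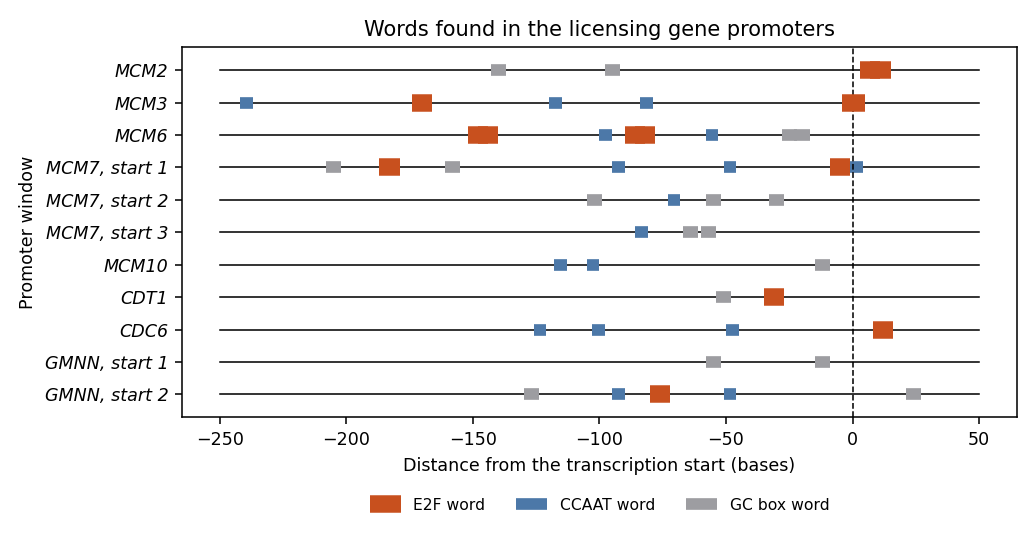
Positions of the E2F, CCAAT and GC box words in the promoter windows of the 8 licensing genes with a RefSeq window, as distance in bases from each annotated start (dashed line). E2F words stand in every gene shown but MCM10, between -187 in MCM7 and 15 in CDC6.

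The deposited values were read as FPKM, fragments counted per length of transcript and per depth of sequencing, and their sums ran from 424742 to 534297, with 14588 to 14685 genes above 0. How many reads stand behind each library is not known. The epithelial markers EPCAM, CDH1, KRT8, KRT18 and KRT19 lay between 20.7 and 1378 FPKM in every library. All 5 had a lower mean in si-152, beside 5136 of the 11221 tested genes. At an unadjusted p under 0.05, limma called 0 of the 5, beside 4.38% of all tested genes. In KRT8 and KRT18 both si-152 libraries were below both si-NC libraries, as in 13.9% of all tested genes. The summed FPKM of the 5 markers was 3017 and 3520 in si-NC and 2377 and 2962 in si-152. Of the 5 markers of other cell types, only COL1A1 was above 1 FPKM, PTPRC and COL1A2 were listed at 0, and the sum was 7.47 to 8.51 FPKM. The part of these markers in the results was not tested. None of the 10 licensing genes was listed at 0 in any library, and all 10 passed the filter of at least 1 FPKM in at least 2 libraries, with 11221 genes in all. The test was limma on log2(FPKM + 1), and fold changes on that scale understate the change of low genes. In bulk RNA, a change in the share of cycling cells and a change in mRNA per cycling cell cannot be told apart.

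MCM7 mRNA was the most abundant of the licensing genes, and MCM10 mRNA the least. MCM7 averaged 75.1 FPKM over the 4 libraries, above 92.0% of the tested genes, whereas MCM10, a replication factor that is not part of the ring, averaged 4.19 FPKM, above 24.9% of them. Between these came CDC6 at 37.7, MCM3 at 31.6, GMNN at 26.9, CDT1 at 26.0, MCM5 at 21.1, MCM2 at 18.5, MCM4 at 17.0 and MCM6 at 13.5 FPKM. The ranges over the 4 libraries were apart only for MCM7 and CDC6, for MCM4 and MCM6, and for MCM6 and MCM10. All other neighbours in this order overlapped, so that CDC6, MCM3, GMNN, CDT1, MCM5, MCM2 and MCM4 formed a series with no break. FPKM is a level per length of transcript, which allows genes to be set side by side. The unit was inferred and is not named in the deposited values, so this order holds only if they are FPKM.

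**Figure D2:**
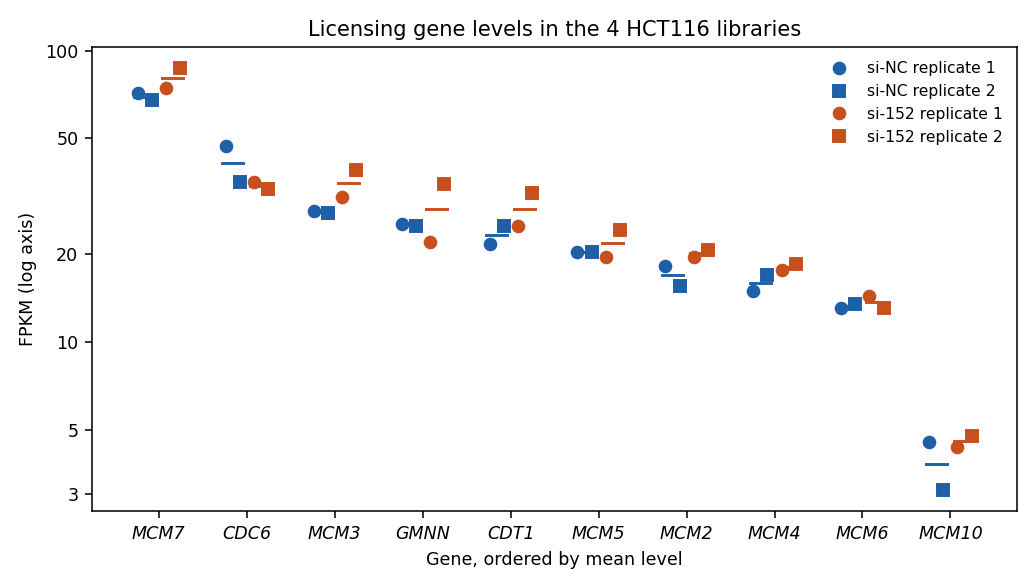
FPKM (log axis) of the 10 licensing genes in each library, ordered by mean level, with short lines for the mean of the 2 libraries of a group. MCM7 stands above all others in every library, and si-152 replicate 2 is the highest library for 8 of the 10 genes.

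With the replicate number added as a factor, limma called 2 of the 10 at an unadjusted p under 0.05, beside 1893 of the 11221 tested genes. With the group as the only factor, which is the fit reported from here on, no licensing gene passed any threshold between si-152 and si-NC. At an unadjusted p under 0.05, limma called 0 of the 10, with 4.38% of all tested genes called, and with a fold change above 1.5 added it called 0, with 1.66% of all genes called. After Benjamini-Hochberg adjustment over the 11221 genes, the count was again 0, with 2 genes or 0.0178% called in all, and the adjusted p was 1.00 for each of the 10. In 9 of the 10 genes the mean log2 difference was above 0, CDC6 being the exception, beside 6085 of the 11221 tested genes. The median log2 difference of the 10 genes was 0.19, beside 0.02 for all tested genes. For 4 of the 10 genes both si-152 libraries were above both si-NC libraries, with 16.5% of all tested genes in that state, and for 1 of the 10 they were below, with 13.9% of all genes.

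The same-numbered libraries were also set against each other, replicate 1 with replicate 1 and replicate 2 with replicate 2. In 5 of the 10 genes, MCM2, MCM3, MCM4, MCM7 and CDT1, si-152 was higher in both pairs, as it was in 35.6% of all tested genes. CDC6 was lower in both. The median log2 difference of the 10 genes was 0.08 in the first pair and 0.36 in the second, beside -0.03 and 0.07 for all tested genes. In the second pair, si-152 replicate 2 was the highest of the 4 libraries for 8 of the 10 licensing genes and for 22.6% of all tested genes. Without that library the median of the 10 genes was 0.10.

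**Figure D3:**
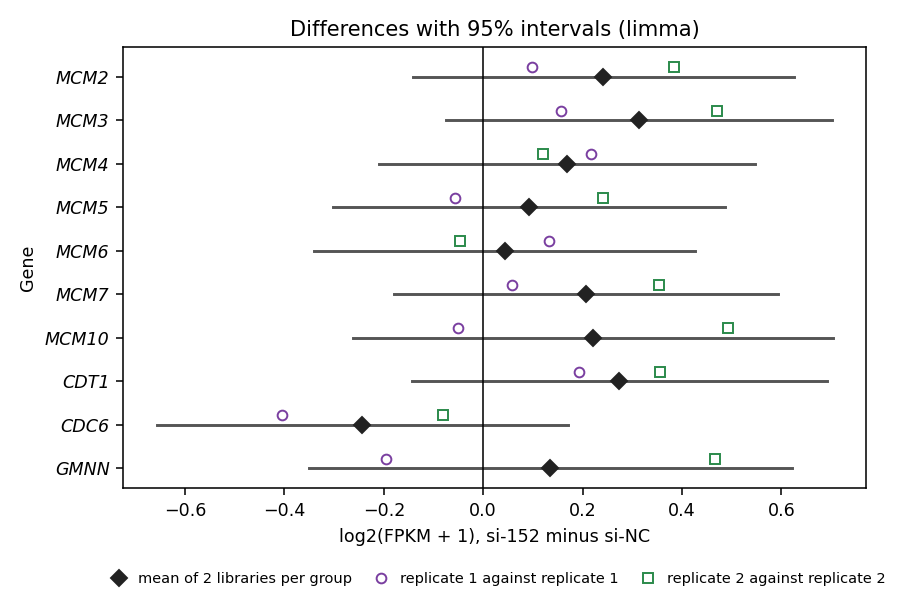
Difference in log2(FPKM + 1), si-152 minus si-NC, for each licensing gene, with the mean of 2 libraries per group (diamond) and its 95% interval from limma, and the differences of the same-numbered pairs (open symbols). Every interval spans 0, and the second pair is above the first in 8 of the 10 genes.

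With all 4 libraries, the mean difference among the ring subunits was largest in MCM3. MCM3 stood at 28.2 and 27.8 FPKM in si-NC replicates 1 and 2, and at 31.5 and 38.9 FPKM in si-152 replicates 1 and 2. Both si-152 libraries were above both si-NC libraries, which were themselves nearly equal. The group means were 28.0 ± 0.243 and 35.2 ± 5.27 FPKM (SD, n = 2), a ratio of 1.26, and the log2 difference was 0.31 (SE 0.17, 95% interval -0.08 to 0.70). By pair it was 0.16 and 0.47. Without si-152 replicate 2 it was 0.16, and there and without si-NC replicate 1 the difference of MCM2 was larger than that of MCM3, at 0.21 and 0.35.

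MCM7, MCM2 and MCM4 also kept both si-152 libraries above both si-NC libraries, by less. The FPKM of MCM7 was 71.4 and 67.7 under si-NC against 74.4 and 86.8 under si-152, a log2 difference of 0.21 (SE 0.17). MCM2, which is the ring subunit that also binds histones, had an FPKM of 18.3 and 15.6 under si-NC against 19.6 and 20.6 under si-152, a difference of 0.24 (SE 0.17). For MCM4, part of the MCM4-MCM6-MCM7 core of the ring, the FPKM was 15.0 and 16.9 under si-NC against 17.6 and 18.5 under si-152, a difference of 0.17 (SE 0.17). MCM4 was the most even of these across the pairs, at 0.22 and 0.12, whereas the pairs gave 0.06 and 0.35 for MCM7 and 0.10 and 0.38 for MCM2. Each of these differences varied with the library left out but stayed above 0. The lowest were 0.10 for MCM7 without si-152 replicate 2, 0.13 for MCM2 without si-NC replicate 2 and 0.09 for MCM4 without si-NC replicate 1. The highest were 0.32 for MCM7, 0.35 for MCM2 and 0.25 for MCM4.

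In MCM5 and MCM6 the groups overlapped. MCM5, which with MCM2 forms the gate through which the ring opens, stood at 20.3 and 20.4 FPKM with si-NC, and at 19.5 and 24.3 FPKM with si-152. The lowest and the highest of its values were thus both si-152 libraries, and the pairs differed in sign, at -0.06 and 0.24. MCM6 stood at 13.0 and 13.5 FPKM with si-NC, and at 14.4 and 13.0 FPKM with si-152, with pairs of 0.13 and -0.05. Its log2 difference was 0.04 (95% interval -0.34 to 0.43) and that of MCM5 0.09 (95% interval -0.30 to 0.49), and both intervals still hold changes of the size seen in MCM3.

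Over the 6 subunits together, the summed FPKM was 166 and 162 in si-NC and 177 and 202 in si-152. Within that sum the make-up was close in all libraries. MCM7 held 43.0% and 41.8% in si-NC and 42.0% and 42.9% in si-152, a change of 0.0951 percentage points between the group means. MCM3 held 16.9% and 17.2% in si-NC and 17.8% and 19.3% in si-152, and MCM5 held 12.2% and 12.6% in si-NC and 11.02% and 12.0% in si-152. In MCM3 the si-152 shares were thus above, and in MCM5 below, both si-NC shares. The shares were not tested. By FPKM, 16.5% of all tested genes were apart in this way above and 13.9% below. The shares of MCM2, between 9.62% and 11.1%, of MCM4, between 9.03% and 10.5%, and of MCM6, between 6.45% and 8.34%, overlapped between the groups. These shares do not depend on how libraries are scaled to each other.

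**Figure D4:**
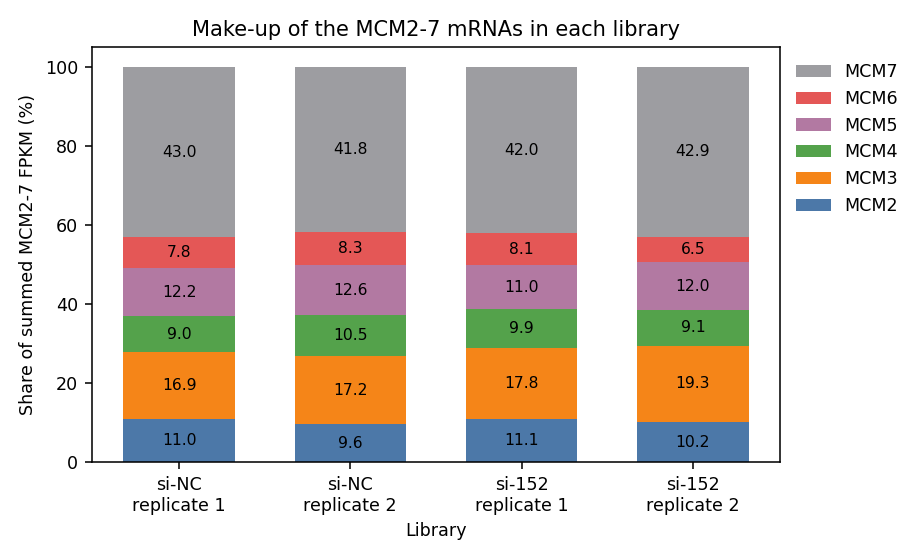
Share of each subunit in the summed MCM2-7 FPKM, in percent, with 1 stacked bar per library. MCM7 holds between 41.8% and 43.0% in every library, and MCM6 has its lowest share, 6.45%, in si-152 replicate 2.

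Of the 15 ratios between ring subunits, 11 overlapped between the groups and 4 did not. The ratios share subunits and none was tested. No such count was made for ratios of other genes. By FPKM, 16.5% of all tested genes had both si-152 libraries above both si-NC libraries, and 13.9% had both below. The ratio of MCM3 to MCM5, picked from the other 4 after the values were seen, was 1.39 and 1.36 in si-NC and 1.61 and 1.60 in si-152. It differed little within a group and by 0.22 on the log2 scale between groups. The log2 ratio of MCM6 to MCM7 was -2.37 and -2.24 in si-NC and -2.29 and -2.64 in si-152, so it was lowest in si-152 replicate 2, where MCM7 was at its highest and MCM6 near its lowest value.

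The loading factors CDT1 and CDC6 had mean differences of opposite sign, both with an interval that spans 0. CDT1, which delivers the ring to the origin, stood at 21.7 and 25.0 FPKM with si-NC, and at 24.9 and 32.3 FPKM with si-152. The groups touched, since si-152 replicate 1 lay just under si-NC replicate 2. The means were 23.4 ± 2.36 and 28.6 ± 5.24 FPKM (SD, n = 2), the ratio was 1.23, and the log2 difference was 0.27 (SE 0.19, 95% interval -0.14 to 0.69), with pairs of 0.19 and 0.36. It was 0.09 without si-152 replicate 2 and 0.46 without si-152 replicate 1.

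CDC6, the ATPase that acts with the origin recognition complex, was the only licensing gene with a lower mean in si-152. It stood at 47.0 and 35.4 FPKM with si-NC, and at 35.3 and 33.4 FPKM with si-152. One si-NC library was far above the other libraries, which lay close together. The means were 41.2 ± 8.23 and 34.3 ± 1.33 FPKM (SD, n = 2), a ratio of 0.833, and the log2 difference was -0.24 (SE 0.18, 95% interval -0.66 to 0.17). Without si-NC replicate 1 it was -0.04, and by pair it was -0.40 and -0.08.

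GMNN, the inhibitor of CDT1, was nearly equal in the si-NC libraries, at 25.5 and 25.0 FPKM, and lay on either side of them in si-152, at 22.1 and 34.9 FPKM. This was the widest split between replicates of a group among the 10 genes by SD, 9.07 FPKM for si-152. The log2 difference was 0.14 (SE 0.22, 95% interval -0.35 to 0.62), with pairs of -0.19 and 0.47, and -0.18 without si-152 replicate 2. MCM10 stood at 4.55 and 3.10 FPKM with si-NC, and at 4.36 and 4.77 FPKM with si-152. Its si-152 libraries lay around the higher si-NC library, and its log2 difference was 0.22 (SE 0.22), with pairs of -0.05 and 0.49. Without si-NC replicate 2 the difference of MCM10 was 0.0022, and without si-NC replicate 1 it was 0.44.

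Within each library, the loading factors were set against geminin. The log2 ratio of CDT1 to GMNN was -0.22 and 0.00 in si-NC and 0.17 and -0.11 in si-152, so the groups overlapped and the pairs differed in sign. The log2 ratio of CDC6 to GMNN was 0.86 and 0.48 in si-NC and 0.65 and -0.06 in si-152. It too overlapped between groups, although both pairs were lower in si-152, by 0.21 and 0.55 on the log2 scale. No test was run on these ratios, and an exact permutation test of 2 against 2 libraries could not give a p below 0.333.

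Beyond the licensing genes, 65 other replication genes were examined in 8 lists, and all 65 were tested. Of all 11221 tested genes, 6085 had a mean difference above 0. Of the 65, 39 were above 0 and 26 below, with a median of 0.03. At an unadjusted p under 0.05, limma called 1 higher, ORC6, and 1 lower, POLE4, a share below the 4.38% of all tested genes, and after adjustment it called 0. The genes that turn the loaded ring into a helicase, CDC45 and the GINS subunits, had a mean above 0 in 5 of 5, with a median of 0.20, close to that of the MCM2-7 ring at 0.19. The origin recognition complex was split, with 2 of 6 above 0 and a median of -0.07, and the genes for turnover of CDT1, CDC6 and geminin were split evenly, 6 and 6, with a median of -0.01. The medians of the remaining 5 lists lay between -0.01 and 0.06. None of these medians was tested.

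ORC6, the smallest subunit of the origin recognition complex and its most abundant mRNA by the mean of all 4 libraries, though not in si-NC alone, stood at 13.7 and 13.1 FPKM with si-NC, and at 16.5 and 19.5 FPKM with si-152. Its log2 difference was 0.40 (SE 0.17, adjusted p 1.00). ORC1, whose mRNA was the least abundant of the complex, stood at 3.74 and 3.35 FPKM with si-NC, and at 4.79 and 4.31 FPKM with si-152, a difference of 0.29. In both genes the si-152 libraries lay above the si-NC libraries. That held for 8 of the 65 other replication genes, while in 8 they lay below, ORC4 among them. Of all tested genes, 16.5% lay above and 13.9% below. POLE4, an accessory subunit of DNA polymerase epsilon, stood at 14.9 and 15.6 FPKM with si-NC, and at 10.3 and 11.7 FPKM with si-152, a difference of -0.44 (SE 0.17, adjusted p 1.00). The call of ORC6 and that of POLE4 were each lost when any 1 library was left out, where the SE was larger and the differences were 0.28 to 0.51 for ORC6 and -0.53 to -0.35 for POLE4.

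PCNA, the sliding clamp, stood at 93.9 and 127 FPKM with si-NC, and at 99.5 and 132 FPKM with si-152. Its replicates differed far more than its groups, and the log2 difference was 0.07 (SE 0.22). CDC45 stood at 9.75 and 7.97 FPKM with si-NC, and at 9.14 and 9.20 FPKM with si-152, a difference of 0.05 with overlapping groups.

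**Figure D5:**
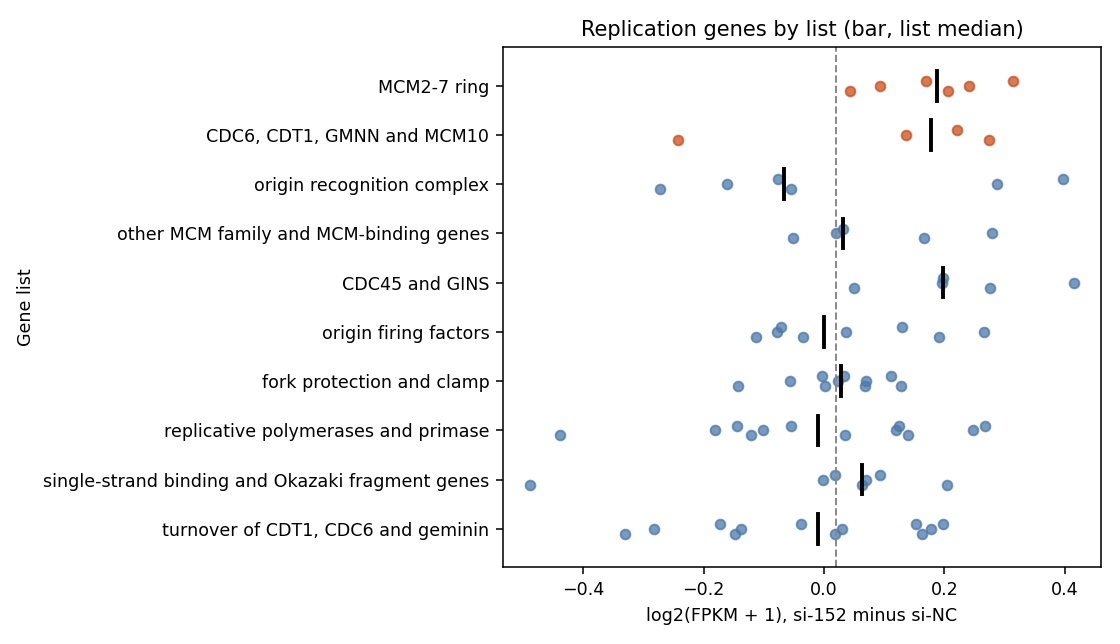
Difference in log2(FPKM + 1), si-152 minus si-NC, for each licensing gene (orange) and each of 65 other replication genes (blue), by list, with list medians (black bars) and the median of all tested genes (dashed line, 0.02). The MCM2-7 ring and the CDC45 and GINS list lie wholly above 0, and the other lists of replication genes lie on both sides of it. Of all 11221 tested genes, 6085 lie above 0.

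The E2F words of the promoters were set against the differences as well. The median log2 difference of the 585 tested genes with an E2F word was 0.0269, beside 0.0210 for tested genes with a window and no such word. By pair, the medians with and without a word were -0.02 and -0.03 in the first and 0.09 and 0.07 in the second. Genes with these words had nearly the same median as those without. The 585 genes include the 7 licensing genes with a word. The median of all 10 licensing genes, 0.19, also covers MCM4 and MCM5, which had no window. Whether E2F has a part in any of these differences was not tested.

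By the GENCODE v29 annotation of GRCh38, the licensing genes lie on 9 different chromosomes. They are MCM6 on chromosome 2 (135839626 to 135876426), MCM2 on 3 (127598223 to 127622436), GMNN and MCM3 on 6 (24774931 to 24786099 and 52264009 to 52284881), MCM7 on 7 (100092728 to 100101940), MCM4 on 8 (47960185 to 47978160), MCM10 on 10 (13161554 to 13211104), CDT1 on 16 (88803213 to 88809258), CDC6 on 17 (40287633 to 40304657) and MCM5 on 22 (35400063 to 35425430). Of these, 3 share a start region with a gene on the opposite strand. The starts of MCM4 and PRKDC, the catalytic subunit of DNA-dependent protein kinase, are 2 bases apart, and PRKDC had a log2 difference of 0.20 with overlapping groups. MCM2 starts 44 bases from TPRA1, which had a difference of -0.13, and MCM7 overlaps AP4M1 by 392 bases, with -0.04 for AP4M1. These distances and overlaps hold for the GENCODE bounds, which differ from the RefSeq starts of the promoter windows. The bases before the RefSeq start lie at 127598161 to 127598410 for MCM2. For the first start of MCM7 they lie at 100101398 to 100101647, inside its GENCODE bounds. MCM7 also holds the miRNA genes MIR25, MIR93 and MIR106B within its bounds on the same strand. Whether strand was used in counting is not given in the sources used here, so reads in the overlapping stretches cannot be assigned to one gene with certainty.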

How the data were processed

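RNA from 2 si-NC and 2 si-152 cultures of HCT116 was sequenced. The authors deposited 1 table per library with 1 FPKM value per gene symbol. The unit is not named in the tables and was inferred from the values, since they carry decimals and exact zeros and no common step of whole reads could be found. The submitters' processing notes name GRCh38, Trimmomatic, TopHat, HISAT2, HTSeq and DESeq, without versions or roles, and counts were not used here. In place of the count test of the study, limma 3.58.1 (R 4.3.3, mean-variance trend, group as the only factor) was run on log2(FPKM + 1) for genes at 1 FPKM or more in 2 or more of the 4 libraries, with Benjamini-Hochberg adjustment over all of them. Call thresholds were an unadjusted p under 0.05, alone or with a fold change above 1.5, and an adjusted p under 0.05. There were 26 date-like symbols, which were kept as they stand, and the second row of each of 2 repeated symbols was dropped.

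Groups and replicate numbers came from the labels. The labels call the replicates biological but do not say what a shared number means. The members and gene lists were chosen with earlier results of these data known. The genes named are all 10 licensing genes, and of the other replication lists those with an unadjusted p under 0.05, PCNA, CDC45, and the subunits of the origin recognition complex with the highest and lowest mean. Neighbouring genes, the marker genes and ring ratios were added for description. Promoter words were counted in RefSeq windows with Python 3.11.15, and figures were drawn with matplotlib 3.10.9. Alternatives were a pseudocount of 0.1 (none for the ratios), other filters, size factors, quantile normalization, a replicate block and leaving out each library.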

Additional observations from a re-analysis of the deposited data

How the results depend on the processing

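The 10 licensing genes had no call under a pseudocount of 0.1, either other filter, size factors, quantile normalization or with any library left out. Their median log2 difference lay between 0.17 and 0.19 under the settings that keep all libraries, and between 0.10 and 0.28 with a library left out. The sign changed with a library left out in MCM5 (-0.059 to 0.24, below 0 without si-152 replicate 2), MCM6 (-0.022 to 0.11, below 0 without si-152 replicate 1), GMNN (-0.18 to 0.45, below 0 without si-152 replicate 2), PCNA (-0.15 to 0.29) and CDC45 (-0.081 to 0.18).

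With the replicate number as a replicate block, limma called 1893 of the 11221 tested genes at an unadjusted p under 0.05, against 492 without it. Calls at this threshold were thus common over all genes. Among them were 2 of the 10 licensing genes, MCM3 and CDT1 (adjusted p 0.239 and 0.260). Of the 65 other replication genes, 9 were called, ORC1 among them. Adjusted calls over all genes rose from 2 to 78, with 0 licensing genes among them. Across genes, the deviation of a library from the mean of its group correlated at 0.52 between libraries of one number. Same-numbered libraries thus shared part of their deviation. With 2 pairs and no statement of what a number marks, its source is not known.

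Over all genes, adjusted calls numbered 1 with a pseudocount of 0.1, 1 with no filter, 1 with size factors, 1 with quantile normalization and 0 with at least 1 FPKM in every library. With a library left out they numbered 39 to 71, and calls by p and fold numbered 107 to 228 higher, against 67, and 103 to 367 lower, against 119. In such a fit the lone library of a group is assumed to vary like the other group. The cause of these shifts was not tested. The depth of reads is not known and counting error was not estimated. With 2 libraries a group and no replicate block, the intervals span 0 for every licensing gene. With the block, MCM3 and CDT1 had an unadjusted p under 0.05 in limma, and none of the 10 passed after adjustment.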
